A study of Homo sapiens with 6 samples.

Results

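The 60 genes described here encode the classical families of axon guidance cues and their receptors, in U87 cells, an established human glioblastoma cell line, after knockdown of PRMT6, an arginine methyltransferase. They were taken by symbol from the 60612 genes of the table, with earlier results of these data known. They comprise 20 semaphorins, 9 plexins, 2 neuropilins, 8 ephrins, 14 Eph receptors, 3 Slits and 4 Robos. The study compared 3 libraries of cells that carried a control shRNA (NC) with 3 libraries of cells that carried an shRNA against PRMT6 (shPRMT6). Both were delivered by lentivirus into the same line, grown in the same serum-containing medium. According to the methods, infected cells were selected with puromycin and the replicates were independent, and the shRNA used for sequencing is not named. The total counts lay between 56388161 and 75887696 per library.

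Guidance cues steer growing axons and migrating cells by attraction or repulsion. Secreted class 3 semaphorins bind neuropilins, which signal through A-type plexins, whereas most membrane-bound semaphorins bind plexins directly. Ephrins are membrane-bound ligands that signal through Eph receptor tyrosine kinases on a neighbouring cell and also back into the cell that carries them, and Slits are secreted ligands of Robo receptors. All these families are also expressed outside the nervous system, including in blood vessels and in tumours.

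PRMT6, the targeted gene, was measured at 9.33, 7.97 and 7.19 CPM in the NC libraries, in replicate order, and 3.57, 4.58 and 5.24 CPM in the shPRMT6 libraries. All 3 shPRMT6 libraries lay below all 3 NC libraries (log2 fold change -0.87, SE 0.187, adjusted p = 0.0225; edgeR quasi-likelihood test, Benjamini-Hochberg adjustment over the 18106 genes tested, as for every adjusted p from all 6 libraries; fits with a library left out were adjusted over the genes they tested). CPM are counts relative to library size after TMM scaling, which corrects for library composition. The PRMT6 estimate missed an adjusted p of 0.05 when NC replicate 1 (-0.77, adjusted p = 0.0613), shPRMT6 replicate 1 (-0.73, adjusted p = 0.0588) or shPRMT6 replicate 2 (-0.89, adjusted p = 0.0713) was left out. The cells were checked against marker lists. VIM (7988 CPM in NC) and CD44 (568 CPM in NC), which glioblastoma lines express, were high. Of the other glioma or astroglial markers, NES was at 38.3 to 45.7 CPM and SLC1A3 at 18.5 to 41.5 CPM over the libraries. The astrocyte gene GFAP was at most 0.886 CPM and FABP7 at most 0.680 CPM in any library, and S100B and AQP4 were at 0 in every library.

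Of the 60 genes, 47 passed the filter on low counts and were tested, and 16 of these passed an adjusted p of 0.05 (34.0%), beside 18.6% of all genes tested. 10 were higher in shPRMT6 (background 9.51%) and 6 were lower (background 9.06%). The median log2 fold change of the 47 was 0.05, against -0.01 over all genes tested, with 25 of the 47 estimates above 0 and 22 below. The CPM of NC and shPRMT6 did not overlap in 28 of the 47 (17 higher and 11 lower, background 40.2%), and these included all 16 genes past the threshold. The 13 genes not tested had at most 19 counts in any library, and EPHA6, EPHA8 and ROBO2 had 0 counts in every library. In bulk RNA a smaller share of expressing cells and less RNA per cell cannot be told apart.

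By family, 2 of 16 semaphorins tested were higher and 1 was lower, 4 of 9 plexins were higher and 1 was lower, 1 of 2 neuropilins was lower, 1 of 5 ephrins was higher and 1 was lower, 2 of 10 Eph receptors were higher and 1 was lower, 1 of 2 Slits was higher, and 1 of 3 Robos was lower. Counted by role, 4 of 23 ligands were higher and 2 were lower, and 6 of 24 receptors were higher and 4 were lower. Over all genes tested, 9.51% were higher and 9.06% were lower. The count of higher genes varied with the library left out. Without NC replicate 3 it was 6, and without shPRMT6 replicates 1, 2 and 3 in turn 6, 4 and 5. Calls over all genes were also fewer in these 4 fits, at 10.3%, 9.95%, 9.25% and 9.89% of genes tested. Guidance genes called in either direction were 22.9%, 21.3%, 19.1% and 18.8% of those tested. With 1 library left out, the count of lower genes was 4 to 6.

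**Figure D1:**
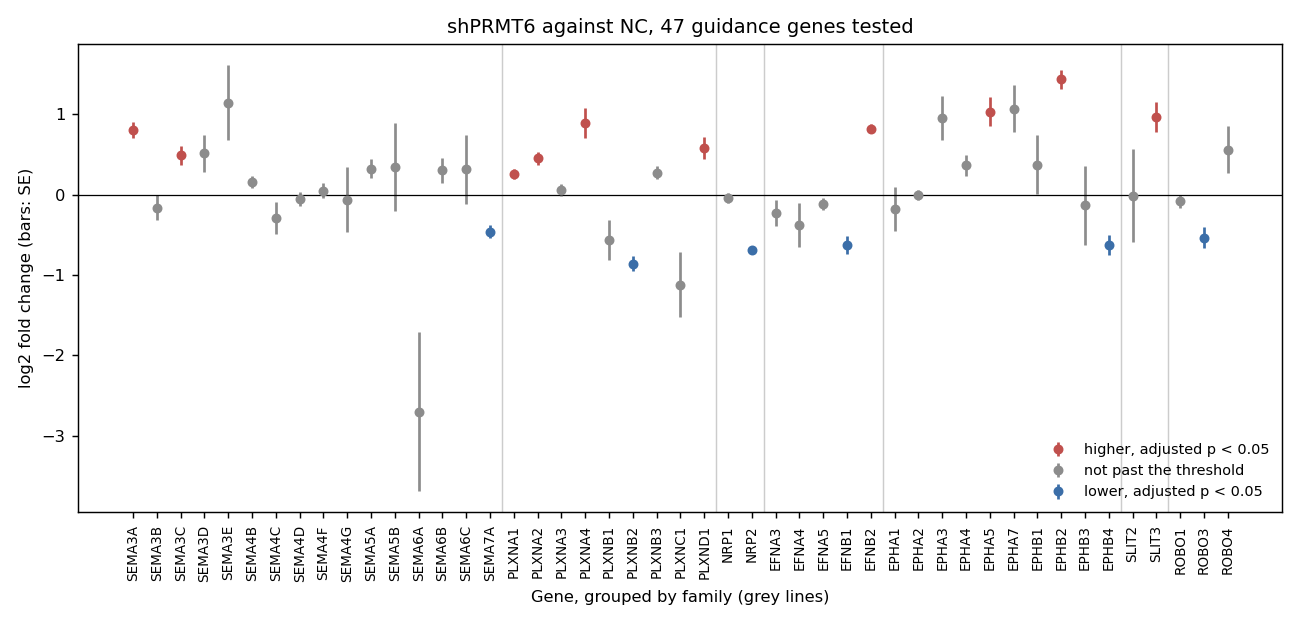
Log2 fold change of shPRMT6 against NC (vertical axis) for each of the 47 genes tested (horizontal axis, grouped by family), with bars of 1 SE and colours for genes past an adjusted p of 0.05. Genes past the threshold lie on both sides of 0, from EPHB2 at 1.43 to PLXNB2 at -0.86, and the widest bar, that of SEMA6A, belongs to a gene under 1 CPM.

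Levels between genes were compared as the deposited FPKM, which are scaled to gene length. Their ratio to CPM followed the summed exon length of each gene, not its longest transcript. In NC, SEMA7A was the most abundant of the 60 (53.1 FPKM), followed by NRP1 (22.8 FPKM), NRP2 (20.8 FPKM), PLXNB2 (19.3 FPKM), EFNB2 (13.7 FPKM), EPHA2 (11.5 FPKM) and SEMA4B (10.5 FPKM). In shPRMT6, SEMA7A was still first (38.8 FPKM), and EFNB2 (24.3 FPKM) stood above NRP1 (22.3 FPKM) and NRP2 (13.0 FPKM). Over the 6 libraries, 8 genes had a mean FPKM of at least 10, 13 of at least 5 and 27 of at least 1. By this measure the most abundant genes were a GPI-anchored semaphorin, both neuropilins, a B-type plexin and a B-type ephrin. Summed exons and longest transcript held 11522 and 5882 bases for NRP1, 13896 and 6662 for NRP2, and 5019 and 4995 for EFNB2. The order of EFNB2 and the neuropilins in shPRMT6 thus depends on the length used.

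Among ephrins and Eph receptors, the B-type genes past the threshold went both ways: EFNB2 and EPHB2 were higher in shPRMT6 and EFNB1 and EPHB4 were lower. EPHB1 (0.37, adjusted p = 0.542) and EPHB3 (-0.14, adjusted p = 0.880) were tested and did not pass. KY on the opposite strand overlaps 0.920% of EPHB1 exon bases, with 6898 counts against 406, so the EPHB1 level is uncertain. EFNB2 (ENSG00000125266, chromosome 13, 106489731 to 106535662, minus strand, GENCODE 29 on GRCh38, as for all gene positions here) encodes ephrin-B2, a transmembrane ligand that marks arterial endothelium and binds EphB4 and EphB2. It was measured at 78.5, 83.8 and 81.9 CPM in the NC libraries, in replicate order, and 142, 142 and 147 CPM in the shPRMT6 libraries. The groups were far apart relative to their spread (log2 fold change 0.82, SE 0.0560, adjusted p = 0.000650). The AL138689.2 gene on the opposite strand overlaps 26.2% of the EFNB2 exon bases, and held 68 counts over the 6 libraries, against 43614 for EFNB2. How reads in shared bases were counted is not stated in the sources used here, so these counts do not settle the effect of the overlap on the EFNB2 level.

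EPHB2 (ENSG00000133216, chromosome 1, 22710839 to 22921500, plus strand) encodes an EphB receptor with roles in axon pathfinding and glioma cell migration. Its level was 23.4, 32.2 and 27.6 CPM in the NC libraries, in replicate order, and 71.99, 77.02 and 75.8 CPM in the shPRMT6 libraries, or 1.86 FPKM in NC and 5.06 FPKM in shPRMT6. Every shPRMT6 library was above every NC library, with the highest NC value in replicate 2. This was the largest fold among the guidance genes past the threshold (log2 fold change 1.43, SE 0.122, adjusted p = 0.00118), a 2.70-fold rise.

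EFNB1 and EPHB4 fell. EFNB1 (ENSG00000090776, chromosome X, 68828997 to 68842147, plus strand), which encodes ephrin-B1, was measured at 11.9, 11.1 and 11.5 CPM in NC and 7.34, 6.92 and 8.08 CPM in shPRMT6, with no overlap (log2 fold change -0.63, SE 0.108, adjusted p = 0.0107). EPHB4 (ENSG00000196411, chromosome 7, 100802565 to 100827521, minus strand), the receptor through which ephrin-B2 acts in veins, was at 13.1, 13.4 and 11.6 CPM in NC and 8.36, 9.002 and 7.29 CPM in shPRMT6, again without overlap (log2 fold change -0.63, SE 0.124, adjusted p = 0.0172). EPHB4 no longer passed without shPRMT6 replicate 1 (-0.64, adjusted p = 0.0584) or without shPRMT6 replicate 3 (-0.55, adjusted p = 0.0596). SLC12A9 on the opposite strand overlaps 1.07% of EPHB4 exon bases, with 6050 counts against 4056 for EPHB4, and whether strand was used in counting is not stated in the sources used here.

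The promoters of these 4 B-type genes past the threshold are shown, a ligand and a receptor in each direction. Each run is read 5′ to 3′ on the strand of the gene, from 250 bases before to 50 after the start site, from RefSeq on GRCh38.p14, at chr13:106535613-106535912 (minus strand) for EFNB2, chr1:22710588-22710887 (plus strand) for EPHB2, chrX:68828771-68829070 (plus strand) for EFNB1 and chr7:100827474-100827773 (minus strand) for EPHB4. Capitals mark the GC box, GGGCGG or its reverse complement CCGCCC.
EFNB2: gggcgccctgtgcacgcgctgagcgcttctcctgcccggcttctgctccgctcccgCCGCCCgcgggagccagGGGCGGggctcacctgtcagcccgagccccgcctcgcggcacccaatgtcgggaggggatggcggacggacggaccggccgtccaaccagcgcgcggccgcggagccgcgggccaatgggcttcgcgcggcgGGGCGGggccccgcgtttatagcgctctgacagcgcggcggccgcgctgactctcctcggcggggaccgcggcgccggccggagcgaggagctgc
EPHB2: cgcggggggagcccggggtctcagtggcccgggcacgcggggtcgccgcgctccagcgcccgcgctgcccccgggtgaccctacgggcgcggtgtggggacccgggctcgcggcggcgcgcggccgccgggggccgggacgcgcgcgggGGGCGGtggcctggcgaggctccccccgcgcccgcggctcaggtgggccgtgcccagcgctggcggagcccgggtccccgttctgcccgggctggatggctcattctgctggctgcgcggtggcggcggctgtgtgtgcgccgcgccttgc
EFNB1: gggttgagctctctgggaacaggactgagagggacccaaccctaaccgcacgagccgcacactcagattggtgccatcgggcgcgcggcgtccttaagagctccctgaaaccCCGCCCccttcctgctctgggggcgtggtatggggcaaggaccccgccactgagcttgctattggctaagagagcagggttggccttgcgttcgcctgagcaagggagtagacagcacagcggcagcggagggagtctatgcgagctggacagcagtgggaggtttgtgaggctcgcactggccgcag
EPHB4: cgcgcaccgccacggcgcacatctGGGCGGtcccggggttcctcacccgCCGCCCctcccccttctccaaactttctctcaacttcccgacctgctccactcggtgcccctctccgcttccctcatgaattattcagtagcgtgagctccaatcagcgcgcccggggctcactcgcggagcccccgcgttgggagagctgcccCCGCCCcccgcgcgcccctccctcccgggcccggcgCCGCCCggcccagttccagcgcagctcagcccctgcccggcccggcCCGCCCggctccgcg

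The GC box occurred 3 times in the window of EFNB2, 1 time in that of EPHB2, 1 time in that of EFNB1 and 5 times in that of EPHB4, so both the higher and the lower genes carried it. Of 35116 promoters of the same length, 45.0% held at least 1 GC box on either strand, against 43 of the 54 guidance genes with a promoter in the table (79.6%). The windows of the 54 were also richer in GC, with a median of 66.2% against 58.7% for all promoters. The part of this in the GC box share was not tested. It was present in 7 of 9 higher genes, 6 of 6 lower genes and 22 of 28 genes tested that did not pass. The TATA box (TATAAA or TTTATA) was found in 1 of the 54, EFNB2, and in 11.5% of all promoters, and the CCAAT box (CCAAT or ATTGG) in 35.2% of the 54 and in 34.6% of all promoters. None of the motifs contains another. The GC content of the windows was 78.7% for EFNB2, 83.0% for EPHB2, 63.7% for EFNB1 and 74.3% for EPHB4. These matches are descriptions of the letters in the window, and the motifs and promoters were picked after the values had been seen.

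As a share of summed FPKM, the composition of both B subfamilies differed between the groups in every library, which is described here without a test because the grouping was made after the values had been seen. EPHB2 made up 44.8%, 53.2% and 51.1% of EphB receptor FPKM in NC and 79.4%, 78.0% and 80.9% in shPRMT6. EPHB4 made up 48.4%, 43.1% and 41.7% in NC and 17.9%, 17.7% and 15.1% in shPRMT6. EPHB2 and EPHB4 thus had near-equal shares in NC, whereas EPHB2 predominated in shPRMT6, while the summed EphB level was 3.73 ± 0.299 FPKM in NC and 6.38 ± 0.268 FPKM in shPRMT6. EFNB2 was already the main ephrin-B in NC (82.2% ± 0.836) and held 92.7% ± 0.405 in shPRMT6 of the summed ephrin-B FPKM.

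EPHA5 was the only A-type Eph receptor past the threshold. EPHA5 (ENSG00000145242, chromosome 4, 65319563 to 65670495, minus strand), a receptor for A-type ephrins in the developing brain, was at 4.49, 6.65 and 4.58 CPM in NC and 10.5, 11.3 and 10.5 CPM in shPRMT6, with NC replicate 2 the highest of its group and no overlap (log2 fold change 1.03, SE 0.180, adjusted p = 0.0109). EPHA7 and EPHA3, further A-type receptors, had estimates of similar size but under 3 CPM and just missed the threshold: EPHA7 was at 1.07 ± 0.321 CPM in NC and 2.25 ± 0.473 CPM in shPRMT6 (log2 fold change 1.07, SE 0.297, adjusted p = 0.0514), and EPHA3 at 1.18 ± 0.290 CPM in NC and 2.28 ± 0.461 CPM in shPRMT6 (log2 fold change 0.96, SE 0.272, adjusted p = 0.0551). These 2 values lie next to the threshold and are given as such. EPHA2, the most abundant Eph receptor and one widely studied in glioma, was measured at 56.8 ± 3.23 CPM in NC and 56.5 ± 0.433 CPM in shPRMT6 (log2 fold change -0.01, SE 0.0670, adjusted p = 0.960), and its groups overlapped. EPHA1 shares 1.73% of its exon bases with ZYX on the opposite strand, which had 120036 counts against 268 for EPHA1, so the EPHA1 level is uncertain.

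The A-type ephrins did not pass the threshold. EFNA5 was at 30.6 ± 0.913 CPM in NC and 28.2 ± 1.35 CPM in shPRMT6 (log2 fold change -0.12, SE 0.0768, adjusted p = 0.343), and EFNA3 and EFNA4, which lie side by side on chromosome 1 and share exon bases with the read-through gene AL691442.1, had estimates of -0.23 and -0.38. EFNA1, a main ligand of EPHA2, had 16 counts over the 6 libraries, EFNA2 had 4 and EFNB3 had 25, and none of them was tested.

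Of the semaphorins, both class 3 genes past the threshold were higher in shPRMT6, whereas SEMA7A was lower. SEMA3A (ENSG00000075213, chromosome 7, 83955777 to 84492724, minus strand), the secreted repellent that binds NRP1, was at 29.7, 36.3 and 29.5 CPM in the NC libraries, in replicate order, and 53.04, 56.4 and 57.5 CPM in the shPRMT6 libraries. It did not overlap between groups, and NC replicate 2 was again the highest of the NC libraries (log2 fold change 0.81, SE 0.102, adjusted p = 0.00382). SEMA3C (ENSG00000075223, chromosome 7, 80742538 to 80922359, minus strand), a secreted semaphorin known from glioma stem cells, was at 58.6, 79.6 and 68.5 CPM in NC and 94.1, 97.1 and 98.4 CPM in shPRMT6 (log2 fold change 0.49, SE 0.113, adjusted p = 0.0294). Its call was lost without NC replicate 3 (0.48, adjusted p = 0.0927) and without shPRMT6 replicate 1 (0.50, adjusted p = 0.0771), 2 (0.48, adjusted p = 0.0900) or 3 (0.48, adjusted p = 0.0887).

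SEMA3C, SEMA3E, SEMA3A and SEMA3D lie within one stretch of the long arm of chromosome 7, from 80742538 to 85186855. The estimates were 0.49 for SEMA3C, 1.15 for SEMA3E, 0.81 for SEMA3A and 0.51 for SEMA3D, and in each of the 4 genes all shPRMT6 libraries were above all NC libraries. Such a lack of overlap, in either direction, was found in 40.2% of all genes tested, and this stretch was chosen after the values were seen. For SEMA3E the gap was narrow, from 0.662 CPM in NC replicate 1 to 0.731 CPM in shPRMT6 replicate 2. SEMA3E and SEMA3D did not pass the threshold (adjusted p = 0.142 and 0.176) and were at 0.410 and 0.801 CPM in NC. SEMA3B, on chromosome 3, was at 7.56 ± 1.21 CPM in NC and 6.74 ± 0.553 CPM in shPRMT6 (log2 fold change -0.16, SE 0.155, adjusted p = 0.518). SEMA3F and SEMA3G, also on chromosome 3, had 17 and 12 counts over all libraries and were not tested.

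SEMA7A (ENSG00000138623, chromosome 15, 74409289 to 74433958, minus strand), a GPI-anchored semaphorin that signals through integrins and plexin C1, was at 236, 238 and 245 CPM in the NC libraries, in replicate order, and 167, 163 and 193 CPM in the shPRMT6 libraries. The highest shPRMT6 library was still below the lowest NC library (log2 fold change -0.46, SE 0.0762, adjusted p = 0.00921). By the deposited FPKM it was the most abundant guidance gene in both groups, and it was 1 of the 6 that fell.

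None of the class 4, 5 and 6 semaphorins passed. SEMA4B was at 87.8 ± 5.17 CPM in NC and 97.8 ± 6.85 CPM in shPRMT6 (log2 fold change 0.16, SE 0.0783, adjusted p = 0.223), SEMA4D, a ligand of plexin B1, at 33.4 ± 2.496 CPM in NC and 32.1 ± 1.52 CPM in shPRMT6 (log2 fold change -0.06, SE 0.0875, adjusted p = 0.701), and SEMA5A at 71.3 ± 9.24 CPM in NC and 89.2 ± 7.58 CPM in shPRMT6 (log2 fold change 0.32, SE 0.114, adjusted p = 0.102). The SEMA5A libraries did not overlap between groups, whereas those of SEMA4B and SEMA4D did. SEMA6A had the most negative estimate of the family (-2.70, SE 0.990, adjusted p = 0.111), at 0.593 CPM in NC and 0.0905 CPM in shPRMT6, with 0 counts in shPRMT6 replicate 3.

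The neuropilins, co-receptors for class 3 semaphorins and VEGF, were at similar levels in NC, and NRP2 passed the threshold while NRP1 did not, a difference that was not tested itself. NRP2 (ENSG00000118257, chromosome 2, 205681990 to 205798133, plus strand) was at 333, 359 and 341 CPM in the NC libraries, in replicate order, and 212, 212 and 214 CPM in the shPRMT6 libraries. The shPRMT6 libraries lay close together and far below NC (log2 fold change -0.69, SE 0.0517, adjusted p = 0.000814). NRP1 (ENSG00000099250, chromosome 10, 33177492 to 33336262, minus strand) was at 300.3, 335 and 303 CPM in NC and 302, 300.5 and 308 CPM in shPRMT6, its groups overlapped, and its estimate was close to 0 (log2 fold change -0.04, SE 0.0601, adjusted p = 0.678). The NRP2 share of summed neuropilin FPKM was 47.7% ± 0.620 in NC and 36.8% ± 0.165 in shPRMT6.

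Plexins, the signalling receptors of semaphorins, passed the threshold in 5 of 9 cases, beside 18.6% of all genes tested. PLXNA1, PLXNA2, PLXNA4 and PLXND1 were higher and PLXNB2 was lower. This count varied with the library left out. Without NC replicates 1, 2 and 3 in turn it was 3, 4 and 2, with PLXNB2 past the threshold each time. Without shPRMT6 replicates 1, 2 and 3 it was 2, 1 and 2, again including PLXNB2. Over all genes, 13.7%, 16.9% and 10.3% were called without NC replicates 1, 2 and 3. Without shPRMT6 replicates 1, 2 and 3 these shares were 9.95%, 9.25% and 9.89%. PLXNB2 (ENSG00000196576, chromosome 22, 50274979 to 50307627, minus strand), a receptor for class 4 semaphorins that is also bound by angiogenin, was at 161, 167 and 171 CPM in the NC libraries, in replicate order, and 101, 79.6 and 95.3 CPM in the shPRMT6 libraries. The shPRMT6 libraries varied more than the NC libraries but did not reach them (log2 fold change -0.86, SE 0.0954, adjusted p = 0.00246).

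PLXNA2 (ENSG00000076356, chromosome 1, 208022242 to 208244320, minus strand), an A-type co-receptor of neuropilins, was at 28.6, 30.9 and 29.3 CPM in NC and 37.4, 41.7 and 42.2 CPM in shPRMT6 (log2 fold change 0.45, SE 0.0814, adjusted p = 0.0126). PLXNA4 (ENSG00000221866, chromosome 7, 132123332 to 132648688, minus strand), which works with neuropilins in SEMA3A repulsion, was at 2.79, 4.16 and 3.73 CPM in NC and 6.53, 7.34 and 5.99 CPM in shPRMT6 (log2 fold change 0.89, SE 0.188, adjusted p = 0.0211). PLXNA1 (ENSG00000114554, chromosome 3, 126988594 to 127037392, plus strand), the most abundant A-type plexin in shPRMT6, was at 79.9, 87.2 and 83.3 CPM in NC and 100.02, 96.6 and 104 CPM in shPRMT6 (log2 fold change 0.26, SE 0.0623, adjusted p = 0.0319). PLXNA3, the other A-type plexin, was at 90.6 ± 7.05 CPM in NC and 94.1 ± 2.47 CPM in shPRMT6 (log2 fold change 0.05, SE 0.0734, adjusted p = 0.666) and did not pass.

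PLXND1 (ENSG00000004399, chromosome 3, 129555175 to 129606818, minus strand), the SEMA3E receptor of endothelial cells, was at 5.597, 5.17 and 6.63 CPM in NC and 8.45, 9.31 and 8.31 CPM in shPRMT6 (log2 fold change 0.58, SE 0.138, adjusted p = 0.0312). PLXNA2 lost its call without NC replicate 3 (0.44, adjusted p = 0.0518) and without shPRMT6 replicate 2 (0.43, adjusted p = 0.0565) or 3 (0.42, adjusted p = 0.0521). PLXNA4 lost it without NC replicate 3 (0.93, adjusted p = 0.0625) and with shPRMT6 replicate 1 left out (0.90, adjusted p = 0.0635) or 2 (0.81, adjusted p = 0.0771). PLXNA1 and PLXND1 kept it in 1 of 6 such fits each: PLXNA1 passed only without NC replicate 2 and ranged from 0.23 to 0.29, with adjusted p up to 0.110, and PLXND1 passed only without NC replicate 3 and ranged from 0.51 to 0.69, with adjusted p up to 0.106.

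PLXNB3, a B-type plexin that binds SEMA5A, was at 42.5 ± 3.32 CPM in NC and 51.4 ± 1.98 CPM in shPRMT6 and did not pass (log2 fold change 0.27, SE 0.0822, adjusted p = 0.0650). SRPK3 on the same strand overlaps 20.4% of its exon bases, with 184 counts against 18219. The part of this overlap in the PLXNB3 level and share was not tested. PLXNB2 made up 78.5% ± 0.883 of the summed B-type plexin FPKM in NC and 62.7% ± 2.03 in shPRMT6, and PLXNB3 20.8% ± 0.759 and 36.6% ± 1.92. PLXNB1 and PLXNC1 were at or under 2.63 CPM in every library, with estimates of -0.57 and -1.12 that did not pass (adjusted p = 0.165 and 0.108). Genes on the opposite strand overlap 4.04% of PLXNC1 exon bases. CEP83 among them had 2503 counts against 181 for PLXNC1, so the PLXNC1 level is uncertain.

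**Figure D2:**
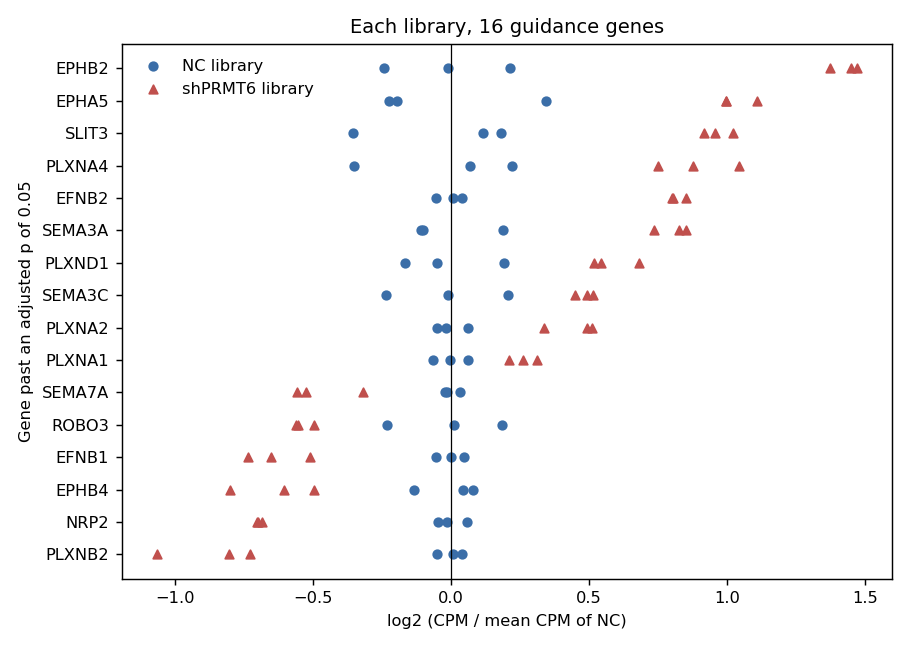
Each library of the 16 guidance genes past an adjusted p of 0.05, as log2 of its CPM over the mean CPM of NC (horizontal axis), 1 row per gene. In every row the 3 shPRMT6 libraries lie on one side of the 3 NC libraries, and the gap is narrowest in PLXNA1, with an estimate of 0.26.

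Among Slits and Robos, 2 of 5 genes tested passed, beside 18.6% of all genes tested. The ligand SLIT3 was higher and the receptor ROBO3 was lower. SLIT3 (ENSG00000184347, chromosome 5, 168661733 to 169301129, minus strand), a secreted Robo ligand, was at 2.02, 2.801 and 2.93 CPM in NC and 4.88, 5.02 and 5.26 CPM in shPRMT6, with no overlap (log2 fold change 0.97, SE 0.184, adjusted p = 0.0150). Its call was lost without shPRMT6 replicate 2 (0.97, adjusted p = 0.0535) or 3 (0.94, adjusted p = 0.0558). SLIT2, the best-known Slit, was under 0.5 CPM in every library and its estimate was near 0 (log2 fold change -0.01, SE 0.585, adjusted p = 0.992), while SLIT1 had 8 counts in all.

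ROBO1, the most abundant Robo of these cells, was at 98.2, 117 and 103 CPM in NC and 104, 96.1 and 100.4 CPM in shPRMT6, and its groups overlapped (log2 fold change -0.08, SE 0.0827, adjusted p = 0.540). ROBO3 (ENSG00000154134, chromosome 11, 124865386 to 124881470, plus strand), a divergent Robo that controls midline crossing in the hindbrain, was at 12.1, 10.2 and 13.6 CPM in NC and 8.14, 8.48 and 8.11 CPM in shPRMT6 (log2 fold change -0.54, SE 0.132, adjusted p = 0.0356). The ROBO3 call held in 1 of 6 fits that left out a library, the one without NC replicate 2, and the estimates in these fits ran from -0.64 to -0.43.

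Whether ligands shifted relative to their receptors was examined as the log2 ratio of ligand to receptor counts within each library, for pairs known to bind each other. Of 9 pairs, 7 had both genes tested. Ephrin-B2 also binds EphB2, and the pair of EFNB2 and EPHB2, both higher in shPRMT6, was not among the 9. The EFNB2 to EPHB4 ratio was 2.58, 2.64 and 2.82 in NC and 4.09, 3.98 and 4.33 in shPRMT6, a difference of 1.45 on the log2 scale. The EFNB1 to EPHB2 ratio moved the other way, from -0.98, -1.54 and -1.26 to -3.29, -3.47 and -3.23, a difference of -2.07. The SEMA3A to NRP1 ratio differed by 0.85 and that of SEMA4D to PLXNB1 by 0.50.

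In each of these 4 pairs the libraries of the groups did not overlap, and the two-sided exact permutation test gave p = 0.1 (0.175 after Benjamini-Hochberg adjustment over 7 pairs), the smallest p that 3 against 3 libraries allow, so no pair could pass 0.05. The 3 remaining pairs overlapped: SEMA7A to PLXNC1 differed by 0.60 (exact permutation p = 0.3), SEMA3E to PLXND1 by 0.62 (exact permutation p = 0.3) and SLIT2 to ROBO1 by 0.13 (exact permutation p = 0.8). The pair ratios are built from the same counts as the fold changes above and are not independent of them. That of SEMA7A to PLXNC1 also carries the uncertainty of the PLXNC1 level given above. Because a count ratio holds transcript lengths constant within a pair, only its change between groups is read here.

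**Figure D3:**
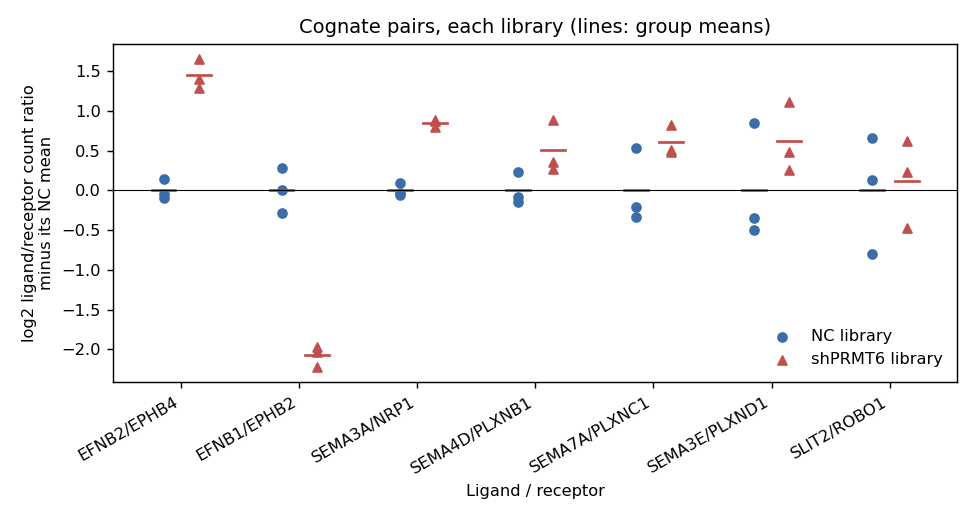
Log2 ratio of ligand to receptor counts minus its NC mean (vertical axis) for the 7 pairs tested (horizontal axis), 1 point per library, with lines at the group means. The EFNB1 to EPHB2 ratio is lower by 2.07 and the EFNB2 to EPHB4 ratio higher by 1.45 in shPRMT6, while SLIT2 to ROBO1 overlaps.

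Of 59 further genes of guidance signalling, 47 were tested, 8 were higher and 5 were lower (27.7%, beside 18.6% of all genes), with a median log2 fold change of 0.00. Leaving out NC replicate 1, NC replicate 3, shPRMT6 replicate 2 or shPRMT6 replicate 3 left 5 of them higher in each case. Among netrins, RGMs and their receptors, 2 of 7 were higher and 2 were lower. NTNG1, a GPI-anchored netrin, was at 40.8, 35.9 and 36.5 CPM in NC and 103, 111 and 109 CPM in shPRMT6 (log2 fold change 1.51, SE 0.0749, adjusted p = 0.000264), and RGMB, a repulsive guidance molecule and BMP co-receptor, at 74.3, 78.1 and 70.9 CPM in NC and 48.3, 54.1 and 55.1 CPM in shPRMT6 (log2 fold change -0.50, SE 0.0779, adjusted p = 0.00737). Neither gene overlapped between groups.

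Among semaphorin effectors, 1 of 16 was higher and 2 were lower (18.8%, near the 18.6% of all genes tested). DPYSL2, the CRMP2 protein that carries the SEMA3A signal to microtubules, was at 110.1, 112 and 113 CPM in NC and 70.3, 73.1 and 74.5 CPM in shPRMT6 (log2 fold change -0.62, SE 0.0553, adjusted p = 0.00138). Thus SEMA3A was higher and this effector was lower in the same libraries. Among Slit-Robo effectors, 1 of 10 was higher and 1 was lower (20%, near the 18.6% of all genes tested). The lower gene, ABL1, a tyrosine kinase that acts with Robo, was at 201, 212 and 220.01 CPM in NC and 156, 151 and 155 CPM in shPRMT6 (log2 fold change -0.45, SE 0.0564, adjusted p = 0.00358).

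Among ephrin and Eph effectors, 4 of 14 were higher and 0 were lower by edgeR, which gave 5 higher and 0 lower at an unadjusted p under 0.05, and DESeq2 called 5 higher and 1 lower. Of all genes tested, edgeR called 9.51% higher and 9.06% lower. TIAM1, a RAC1 exchange factor recruited by Eph receptors and ephrin-Bs, was at 13.7, 15.03 and 14.4 CPM in NC and 25.2, 25.7 and 24.4 CPM in shPRMT6 (log2 fold change 0.80, SE 0.0827, adjusted p = 0.00196). SIPA1L1, a RAP GTPase-activating protein that binds Eph receptors, was at 46.8, 42.8 and 48.2 CPM in NC and 73.5, 74.7 and 65.8 CPM in shPRMT6 (log2 fold change 0.63, SE 0.0816, adjusted p = 0.00404). Both genes were higher in all 3 shPRMT6 libraries than in any NC library.

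EFNB2, EPHB4, NRP2 and PLXND1 are also endothelial genes, so markers of that cell type were read beside them. The summed level of 5 endothelial markers, 4 of them tested, was 17.9 to 25.9 CPM in NC and 28.5 to 29.8 CPM in shPRMT6. TEK was higher (0.60, adjusted p = 0.0288), PECAM1 did not pass (0.70, adjusted p = 0.0544), KDR had an estimate of 0.04, VWF had the largest estimate at 0.153 CPM in NC and 0.586 CPM in shPRMT6 and did not pass (1.97, adjusted p = 0.297), and CDH5, a defining endothelial gene, was at 0 in 5 of the 6 libraries and at 0.0526 CPM in the other. All 4 markers tested had estimates above 0. Their part in the guidance results was not tested. Of the other marker lists, 0 of 6 astroglial, 0 of 6 neuronal, 0 of 2 oligodendrocyte and 0 of 1 microglial genes tested passed the threshold in edgeR, with 0 at an unadjusted p under 0.05 in each list, and DESeq2 also called 0. These lists were not all silent. Summed neuronal markers lay at 120 to 252 CPM over the libraries, mostly TUBB3. Microglial markers summed to 10.8 to 14.3 CPM, nearly all CSF1R, and oligodendrocyte markers to 0.715 to 3.27 CPM.

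The GC content of the longest transcript varied with the estimates. Across the 47 genes, Spearman's rho of GC content and log2 fold change was -0.38, against -0.14 over 17873 genes, where genes share libraries and are not independent. Of the 15 genes below 50% GC, 3 were higher and 0 were lower by edgeR (8 and 2 at an unadjusted p under 0.05, and 8 and 2 called by DESeq2) with a median of 0.36. Of the 32 at or above 50%, 7 were higher and 6 were lower with a median of 0.02. Over all genes tested below 50% GC, 11.4% were higher and 7.01% lower by edgeR, with a median of 0.05. At or above 50% GC, 7.21% of all genes were higher and 11.9% lower, with a median of -0.09. With per-library trends on GC content and transcript length removed, all 16 calls held, and 14 genes were higher and 6 were lower. The part of GC content in the single estimates was not tested further.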

How the data were processed

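The 6 RNA-seq libraries of U87 cells were grouped by their labels, 3 as NC and 3 as shPRMT6. For every gene the authors deposited a raw read count and an FPKM value per library, where genes without reads carry 1e-04. The submitters' processing notes name HISAT2, HTSeq 0.13.5 and GRCh38. The strand setting and annotation release are not given in the sources used here. The labels name a Trizol extraction and the methods an RNeasy kit.

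Gene symbols and positions were taken from GENCODE 29 and a gene name table (60401 of 60612 identifiers matched to a symbol), and promoters from RefSeq on GRCh38.p14. The 60 members, the gene lists and the pairs were chosen with earlier results of these data known. Counts were tested in R 4.3.3 with edgeR 4.0.16 (TMM, filterByExpr, quasi-likelihood test) over 18106 genes with Benjamini-Hochberg adjustment. Depth (56388161 to 75887696 counts per library) and 3 libraries per group set the precision, and errors are SD over 3 libraries. Ratios of pairs used raw counts plus 0.5, and an exact permutation test.

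Genes named were all members past an adjusted p of 0.05, members with a mean FPKM of at least 5, members of the pairs, and the 3 other pathway genes with the smallest p in each direction. Other named members, the shares of subfamilies, the chromosome 7 genes, the split by GC content and the promoters were chosen after values were seen. Alternatives were DESeq2 1.42.0, other scaling factors, other filters, a replicate block, limma 3.58.1 on log2 FPKM with pseudocounts of 1 and 0.1, GC and length trends removed, other thresholds, and each library left out. The programs were tested on simulated counts under 2 assumptions on dispersion, the second chosen after the first had been seen. Under both, the share of false calls among edgeR's calls was above the nominal rate, and that of DESeq2 was higher still. The simulations changed only a small set of genes, all by the same fold, and that share depends on this setting. It need not hold for these data, where far more genes were called. An adjusted p just under 0.05 is still read here as a weak call. No library was a duplicate of another in its group (chi-square per degree of freedom 48.2 to 78.4).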

Additional observations from a re-analysis of the deposited data

How the results depend on the processing

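EFNB2, NRP2, EPHB2, PLXNB2, SEMA3A, SEMA7A and EFNB1 kept direction and call at an adjusted p of 0.05 in all 16 alternative fits, and EPHA5 in all 14 that tested it. Under stricter thresholds on the same fit, EFNB1 and EPHA5 did not reach an adjusted p of 0.01, and of these 8 genes EPHB2 and EPHA5 passed the methods' threshold. The other 8 calls were lost in at least 1 fit that left out a library, and the cause was not tested. Higher guidance genes numbered 16 by DESeq2, 6, 6 and 5 by the limma fits (pseudocount 1, pseudocount 0.1, no filter), 3 at an adjusted p under 0.01, 4 under the threshold of the methods (absolute log2 fold change above 1, unadjusted p under 0.05) and 4 to 11 with 1 library left out. Lower guidance genes numbered 3 at an adjusted p under 0.01 and 2 under the methods' threshold. Other pathway genes numbered 10 lower by DESeq2, 2 lower and 2 higher under the methods' threshold, 4 higher at an adjusted p under 0.01, and 5 to 8 higher with 1 library left out. Over all genes, DESeq2 called 5782 and the replicate block 1858, against 3362. Same-numbered libraries did not deviate together (correlations -0.025, -0.017 and -0.030). Whether the numbers pair the samples is not stated in the sources used here, and these correlations cannot settle it. With the replicate block, 8 guidance genes were higher and 5 lower, 4 other pathway genes were higher, and PRMT6 was at -0.88 (adjusted p = 0.0803). PRMT6 was also short of the threshold by limma without a filter (-0.47), and ranged from -1.0 to -0.73 with 1 library left out. Estimates near 0 changed sign: EPHA2 was 0.0027, 0.0031 and 0.0027 by the limma fits, 0.12 with GC and length trends removed, 0.041 without NC replicate 3 and 0.00046 without shPRMT6 replicate 2 (lowest -0.032 with 1 library left out). NRP1 was 0.0081 without NC replicate 2 (lowest -0.074), and SLIT2 was 0.0075 with the replicate block and 0.075, 0.31 and 0.26 without NC replicate 2, NC replicate 3 and shPRMT6 replicate 2 (lowest -0.35). The SLIT2 to ROBO1 difference ranged from -0.28 to 0.46 with 1 library left out, -0.28 without NC replicate 1 and -0.12 without shPRMT6 replicate 1.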
